A study of Danio rerio with 4 samples.

Results

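The genes described here are those of the hormone-secreting islet cells of the zebrafish pancreas and of the machinery that makes and stores their hormones. Members were taken by gene symbol, ignoring case, from a list of 10 symbols. Of these, 8 had a row among the 31953 genes of the count table, 3 of them hormone genes (ins, gcga and sst2) and 5 of them genes that neurons also use (PCSK1, PCSK2, SCG3, NEUROD1 and ISL1, listed as PCSK1, pcsk2, scg3, NEUROD1 and ISL1). The symbols gcgb and sst1.1 matched no row. Rows with the human-style symbols GCG and SST exist, and the sources used here do not say whether these are gcgb and sst1.1, so their values are given apart and are not counted among the members.

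Per the labels, the study compared larvae carrying the uhrf1(hi272) mutation with siblings of wild-type appearance, both collected at 120 h after fertilisation, with 2 libraries per group. Uhrf1 is a chromatin protein needed to keep DNA methylation through cell division. All 4 libraries are labelled as whole anaesthetised larvae, sorted by phenotype and pooled from 10 to 20 animals of 2 clutches (10 per extraction in the protocol), and no allele is given for the siblings. The count columns and descriptions of the sibling libraries carry the name ABNYU, which the labels do not explain. The labels do not tie a library to a clutch, so the spread behind each p-value may be partly technical.

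Islets hold separate cell types for each hormone. Beta cells make insulin, which lowers blood glucose, alpha cells make glucagon, which raises it, and delta cells make somatostatin, which restrains the release of both. Each hormone is made as a longer precursor, cut by prohormone convertases inside dense-core granules and released when the cell is stimulated. Neurons and pituitary cells store peptides in the same kind of granule and share several of the transcription factors, so the processing and regulatory genes are not particular to islets. The exocrine pancreas, which makes digestive enzymes, surrounds the islets.

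The libraries held 571978 and 564941 gene reads in the mutant pools and 613370 and 812167 in the siblings. Levels are given as CPM, reads scaled to 1 common library size with TMM factors, and 0 reads allow up to 3.25 and 3.22 CPM in the mutant and 8.11 and 8.28 CPM in the sibling libraries (3 reads as the limit). The libraries labelled sibling stood apart from the label of a whole larva and from each other. ELAVL3, ELAVL4 and both SNAP25 rows, defining markers of neurons, had 0 reads in both sibling libraries. Hepatocyte markers took 16.6% and 13.7% of sibling gene reads against 0.137% and 0.0864% in mutants. Of the reads of sibling replicate 1, exocrine pancreas markers took 0.0747%, against 20.0% in sibling replicate 2. Hepatocyte and neuronal content therefore coincided with genotype, while exocrine content also differed between the 2 siblings. In pooled RNA, fewer cells of a type and less RNA per cell cannot be told apart. Nor can a difference in the tissue collected, which the labels do not mention. UHRF1, mutated here, was read 7 and 9 times in mutants, 2 and 17 times in siblings, too few and too spread for a check of the labels.

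Hormone transcripts were abundant in a single library, sibling replicate 2, and near or below the detection limit in the other 3. Insulin (ins, ENSDARG00000035350) had 3 and 1 reads in the mutant pools, 0 in sibling replicate 1 and 102 in sibling replicate 2. In CPM these were 3.25 and 1.07, then 0, then 282 (exact Poisson 95% interval 230 to 342). Glucagon (gcga, ENSDARG00000079296) had 3 and 4 reads in the mutant pools, 1 in sibling replicate 1 and 152 in sibling replicate 2, the last being 420 CPM (356 to 492). Both genes thus gave some reads in each mutant library, and the mutant values lay between those of the 2 siblings. Somatostatin (sst2, ENSDARG00000014190) had 0 reads in both mutants and in sibling replicate 1 and 216 in sibling replicate 2, or 596 CPM (520 to 681). For all 3 hormones sibling replicate 1 lay close to the mutants and far from sibling replicate 2.

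**Figure D1:**
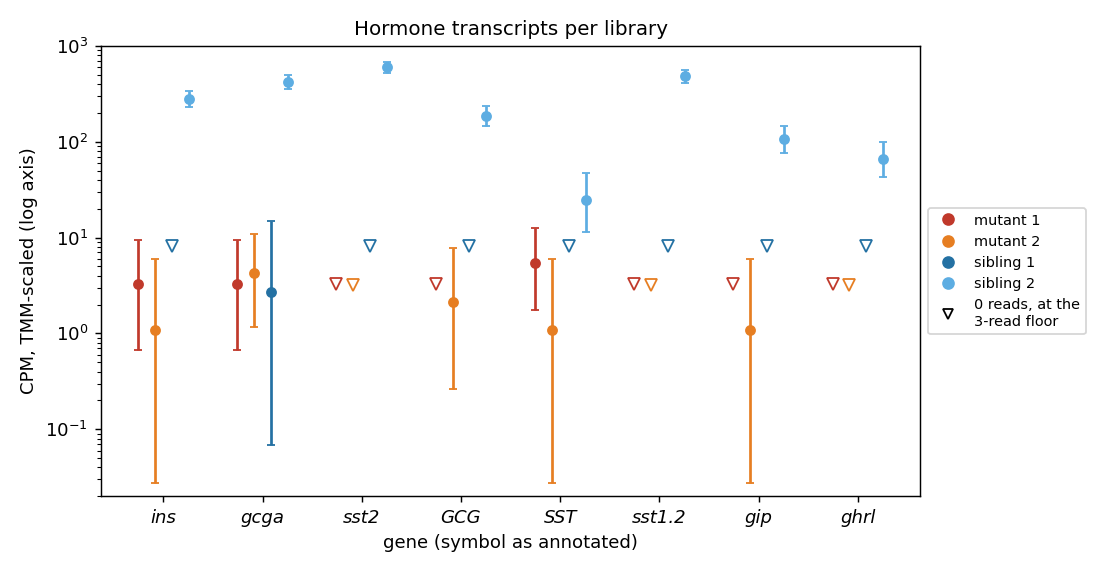
Level of the member hormones and of GCG, SST, sst1.2, gip and ghrl in each library in TMM-scaled CPM on a log axis. Points are libraries, bars are exact Poisson 95% intervals (counting error only), and open triangles mark 0 reads, drawn at the limit of 3 reads. Sibling replicate 2 is the highest point for every gene shown, at 596 CPM for sst2 and 282 CPM for ins. Of the hormone rows not shown, pyya, CCK and NTS had reads in mutants only.

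With TMM scaling, and set against the 2 mutant libraries together, sibling replicate 2 held 130 times (49.4 to 488) the insulin level and 111 times (52.6 to 281) the gcga level. For sst2 it was 183 times the 3-read limit of a mutant library. Relative to the 3-read limit of sibling replicate 1 it was 34.7 times for ins and 73.5 times for sst2. Ratios to a limit leave out counting error and are not lower bounds. For gcga, where sibling replicate 1 had 1 read, sibling replicate 2 held 155 times (27.4 to 6171) the level there. These ratios compare libraries, with 1 library on a side, and carry no test of genotype. Their intervals cover counting error only.

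None of the 3 hormone genes passed the count filter, which asks for enough reads in at least 2 libraries; the 5 members that passed were all neuron-shared genes. Without the filter the fitted log2 fold changes, mutant over sibling, were -5.57 ± 2.28 for ins, -5.39 ± 2.13 for gcga and -10.34 ± 4.22 for sst2 (± standard error, n = 2 per group). None passed (edgeR, Benjamini-Hochberg adjusted p = 0.19, 0.177 and 0.218), where 6.13% of all genes in that fit were called lower. Without sibling replicate 1, all 3 entered the test through sibling replicate 2 alone, where they are high, so that their direction was fixed by the filter. The values there, given as a description, were -6.88 ± 0.36, -6.70 ± 0.25 and -11.75 ± 0.41 (edgeR adjusted p = 0.00126, 0.00076 and 0.00166), with 19.4% of all genes called lower. That fit assumes that the lone sibling library varies like the mutant pair. The sst2 value depends on the prior count, since the mutants had 0 reads. Without sibling replicate 2, and with no filter, ins and gcga were at 3.84 and 0.76 and sst2 had no read in any library.

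The make-up of the hormone reads in sibling replicate 2 was 46.0% sst2 (exact binomial 95% interval 41.4% to 50.6%), 32.3% gcga (28.1% to 36.8%) and 21.7% ins (18.1% to 25.7%). These are shares of reads and not of transcripts, since gene length was not taken into account. The mutant libraries had 6 and 5 hormone reads in all, of which sst2 took 0, with exact upper limits of 45.9% and 52.2%. No test of the make-up was run, and its reads come from 1 library on the sibling side.

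Rows outside the member list followed the same pattern in part. GCG, a second glucagon-type row (ENSDARG00000040907), had 0 and 2 reads in the mutant pools, 0 in sibling replicate 1 and 68 in sibling replicate 2. SST (ENSDARG00000040799), a somatostatin-type row, had 5 and 1 reads in the mutant pools, 0 in sibling replicate 1 and 9 in sibling replicate 2. With TMM scaling its level in sibling replicate 2 was 7.68 times (2.44 to 26.2) that of the mutants, against 174 times (46.4 to 1466) for GCG. Of 11 rows of other islet and gut hormones, 0 passed the count filter and the list had 11 and 4 reads in the mutant pools, 1 in sibling replicate 1 and 246 in sibling replicate 2. Most of the latter came from sst1.2, a second somatostatin gene, with 174 reads there and 0 in the other 3 libraries. The incretin gip had 39 reads and the hunger hormone ghrl 24 in sibling replicate 2, against 1 and 0 reads over the other libraries. The gut peptide pyya went the other way, with 6 and 3 reads in the mutant pools and 0 in both siblings, and insb, a second insulin gene, had 0 reads in every library. Apart from sst1.2, these rows are named after their values were seen.

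Exocrine pancreas markers stood high in the same library as the hormones. Their 26 rows summed to 33 and 37 reads in the mutant pools, 458 in sibling replicate 1 and 162781 in sibling replicate 2. All 26 rows had reads in sibling replicate 2, and PTF1A, the acinar transcription factor, had 1, 1, 0 and 4 reads in the 4 libraries. Per 1000 exocrine reads there were 2.18 hormone reads in sibling replicate 1 (exact 95% interval 0.0552 to 12.2) and 2.89 in sibling replicate 2 (2.63 to 3.16). The mutant libraries had 182 (62.3 to 439) and 135 (41.5 to 345) per 1000. The 2 siblings differed in the amount of pancreatic reads of both kinds. Their ratios overlapped, but that of sibling replicate 1 rests on 1 hormone read, so the overlap shows little. Both mutant ratios lay above both sibling ratios, from 6 and 5 hormone reads over 33 and 37 exocrine reads. Of 13 tested exocrine genes, 2 fell, the amylase amy2al1 and the phospholipase PLA2G1B by log2 fold changes of -9.47 ± 0.72 and -10.55 ± 2.37 (edgeR adjusted p = 4.29e-07 and 0.0439). Over all tested genes, 25.9% were called lower. The tested rows passed the count filter largely through the sibling libraries, where they are high, which favours a fall, so their counts are a description. The exocrine count depended on the fit: 13 of 13 fell with DESeq2 and 10 of 13 with the replicate number as a block. Over all genes, 1658 and 2051 of 8133 were called lower there. The median was -4.77 over 13 rows without sibling replicate 2 and -13.34 over 24 rows without sibling replicate 1. Without mutant replicate 1 or 2 it was -12.04 and -12.02. The part of exocrine content in the hormone values was not tested.

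**Figure D2:**
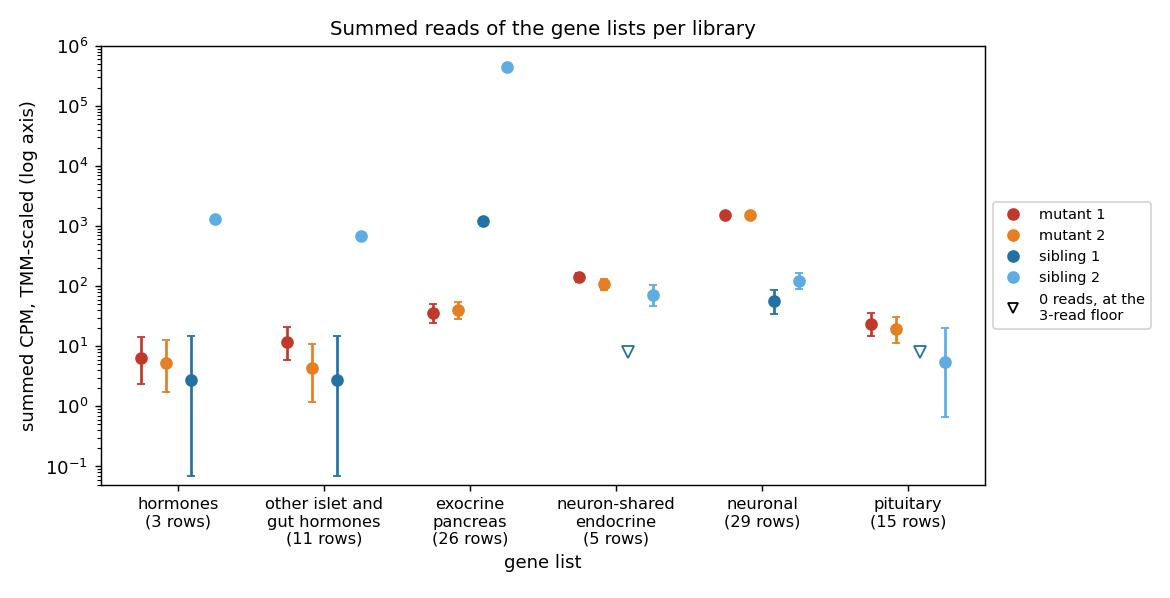
Summed TMM-scaled CPM of each gene list in each library on a log axis. Bars are exact Poisson 95% intervals (counting error only) and open triangles mark 0 reads at the limit of 3 reads. Hormones (470 reads) and exocrine markers (162781 reads) are highest in sibling replicate 2, and neuronal markers in the 2 mutants.

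In sibling replicate 2, 1004 genes had at least 50 reads, and 21 of them (2.09%) had 0 reads in sibling replicate 1. Both ins and sst2 were among these 21, as were GCG and sst1.2, and 5 were on the exocrine list. Rows named CEL, SYCN and CELA1 were also among the 21 but matched no symbol of that list. The limit of 50 reads was set after the values were seen. The 5 genes whose centred log2 CPM profile over the 4 libraries lay closest to ins, among 5247 genes with a symbol and at least 50 reads, were ELAPOR1, si:ch211-255i20.3, loc100334908, cela1.2 and CELA1. Their Euclidean distances were 0.71 to 0.87. Each had 0 reads in sibling replicate 1 and between 51 and 106 in sibling replicate 2. The elastase gene cela1.2 and, by its name, CELA1 are digestive enzyme genes. The distances rest on these 4 libraries and are a description.

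The 5 neuron-shared genes gave the opposite picture, with most reads in the mutant pools, 0 in sibling replicate 1 and a few in sibling replicate 2. Together they had 131 and 100 reads in the mutant pools, 0 and 26 in the siblings. All 5 passed the count filter. They did so through the mutant libraries, where they are high, which favours a rise. The count, the median and the rise of each gene given below are therefore a description. Of the 5 genes, 3 rose and 2 did not pass, and 35.2% of all 8133 tested genes were called higher in mutants. Their median log2 fold change was 2.44, and that of all tested genes was 0.48. With total-count scaling and with ribosomal protein scaling, 5 of 5 were called higher, and the medians of all tested genes were then 2.17 and 3.10. The split of all genes into higher and lower was 2861 and 2104, 5585 and 1015 with total-count scaling, and 6425 and 657 with ribosomal protein scaling.

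The convertases cut prohormones at paired basic residues. PCSK1 (ENSDARG00000002600), which in mammals processes proinsulin, had 33 and 21 reads in the mutant pools, 0 in sibling replicate 1 and 2 in sibling replicate 2. Its level was 29.2 ± 9.38 CPM in mutants and 2.76 ± 3.90 CPM in siblings (mean ± SD, n = 2), with both mutants above both siblings. Its log2 fold change was 3.33 ± 0.81, and it rose (edgeR adjusted p = 0.00317). PCSK1 passed the count filter through the mutant libraries, so this rise is a description. PCSK2 (ENSDARG00000019451), which in mammals releases glucagon from its precursor, had 22 and 16 reads in the mutant pools, 0 in sibling replicate 1 and 5 in sibling replicate 2. The levels were 20.5 ± 4.73 CPM and 6.90 ± 9.76 CPM, and the groups did not overlap. Its log2 fold change of 1.56 ± 0.75 did not pass (edgeR adjusted p = 0.0878), and the mutants held 1.49 times (0.584 to 4.83) the level of sibling replicate 2 with TMM scaling.

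SCG3 (ENSDARG00000086288), secretogranin III, which helps sort cargo into dense-core granules, had 22 and 27 reads in the mutant pools, 0 in sibling replicate 1 and 13 in sibling replicate 2. In CPM the mutants were at 23.9 and 28.98 and sibling replicate 2 at 35.9 (19.1 to 61.4), above both. The groups overlapped, and the log2 fold change of 0.57 ± 0.84 did not pass (edgeR adjusted p = 0.583). With TMM scaling, SCG3 was the only 1 of the 5 genes with its highest level in a sibling library. Relative to total gene reads this order turned, since each mutant library had more SCG3 reads from fewer gene reads. With total-count and ribosomal protein scaling its log2 fold change was 2.30 and 3.26 (edgeR adjusted p = 0.014 and 0.00112). SCG3 took 13 of the 26 neuron-shared reads in sibling replicate 2 (exact 95% interval of the share 29.9% to 70.1%), and 16.8% (10.8% to 24.3%) and 27.0% (18.6% to 36.8%) in the mutants.

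The transcription factors NEUROD1 and ISL1 act in islet cells and in neurons. NEUROD1 (ENSDARG00000019566), a basic helix-loop-helix factor that activates insulin transcription in mammals, had 36 and 25 reads in the mutant pools, 0 in sibling replicate 1 and 4 in sibling replicate 2. Its levels of 32.9 ± 8.64 CPM in mutants and 5.52 ± 7.81 CPM in siblings did not overlap, and it rose by 2.55 ± 0.73 (edgeR adjusted p = 0.00827). ISL1 (ENSDARG00000004023), a LIM homeodomain factor of islet cells and motor and sensory neurons, had 18 and 11 reads in the mutant pools, 0 in sibling replicate 1 and 2 in sibling replicate 2. The levels were 15.7 ± 5.46 CPM and 2.76 ± 3.90 CPM, again without overlap, and it rose by 2.44 ± 0.84 (edgeR adjusted p = 0.0226). NEUROD1 and ISL1 passed the count filter through the mutant libraries, so their rises are a description. In all, 4 of the 5 genes had both mutant CPM above both sibling CPM, as did 48.9% of all tested genes.

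**Figure D3:**
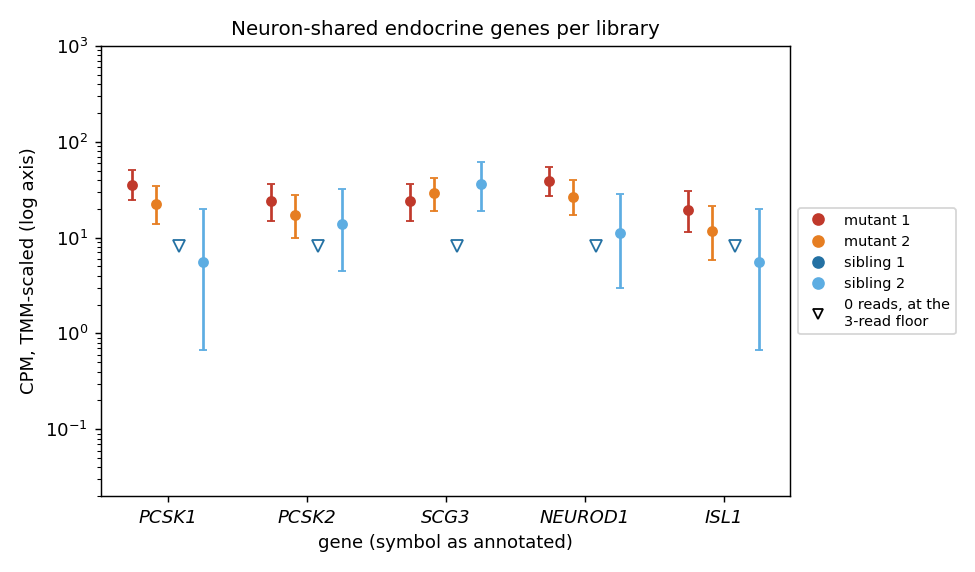
Level of each neuron-shared endocrine gene in each library in TMM-scaled CPM on a log axis, with exact Poisson 95% intervals (counting error only) and open triangles at the limit of 3 reads for 0 reads. All 5 genes have 0 reads in sibling replicate 1, and SCG3 at 35.9 CPM in sibling replicate 2 lies above both mutants at this scaling.

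Relative to the 3-read limit of sibling replicate 1, the mean mutant level was 4.06 times for NEUROD1, 3.60 for PCSK1, 3.26 for SCG3, 2.53 for PCSK2 and 1.93 for ISL1. These ratios leave out the counting error of the mutant reads and are not lower bounds. Against sibling replicate 2, and with TMM scaling, the mutants held 5.28 times (1.39 to 44.7) the PCSK1 level. For NEUROD1 it was 2.98 times (1.11 to 11.3) and for ISL1 2.83 times (0.717 to 24.5). For SCG3 the ratio was 0.737 (0.393 to 1.48). The order of the genes by this ratio was PCSK1, NEUROD1, ISL1, PCSK2 and SCG3, and the counting intervals of each neighbouring pair overlapped.

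The 3 calls held without sibling replicate 2 but not without any of the other 3 libraries. PCSK1, NEUROD1 and ISL1 did not pass without sibling replicate 1, at 2.40 ± 0.81, 1.596 ± 0.61 and 1.51 ± 0.85 (edgeR adjusted p = 0.0899, 0.111 and 0.23), where 16.5% of all genes were called higher. SCG3 was then at -0.40 ± 0.36. Without sibling replicate 2, 5 of 5 were called higher (edgeR adjusted p = 0.00759 to 0.0339), where 23.7% of all genes were, with fits against a library at 0 reads. Without mutant replicate 1, PCSK1, NEUROD1, PCSK2 and SCG3 were at 3.05, 2.35, 1.41 and 0.80, and ISL1 did not pass the count filter. Without mutant replicate 2, PCSK1, NEUROD1, ISL1, PCSK2 and SCG3 were at 3.73, 2.91, 2.86, 1.89 and 0.54. Over all genes, fewer were called higher whichever library was left out. Without sibling replicate 1 the log2 fold change of each of the 5 genes was below its value with all libraries. The median of all tested genes was 0.60 there, against 0.48 with all libraries. The cause of the loss of calls was not tested. None of the 5 genes passed without the count filter (edgeR adjusted p = 0.0677 to 0.599), where 1540 of 23859 genes were called higher.

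**Figure D4:**
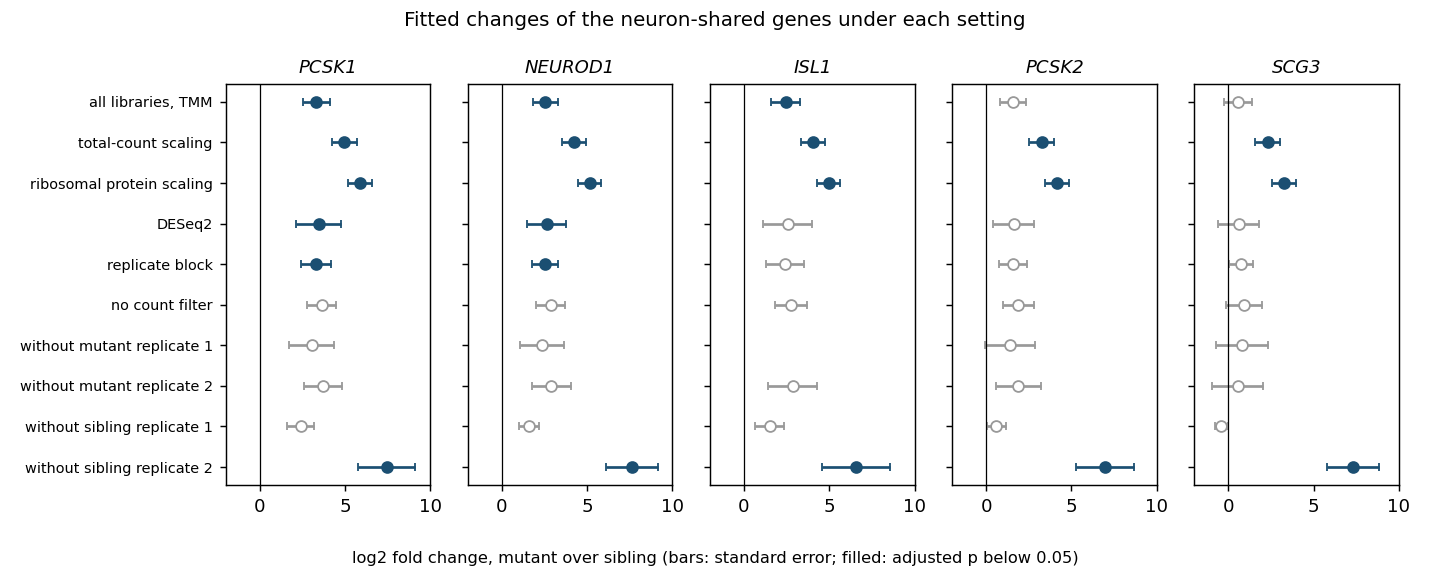
Fitted log2 fold change, mutant over sibling, of the 5 neuron-shared genes under each setting. Bars are standard errors and filled points have an adjusted p below 0.05. Fits without sibling replicate 2 lie highest, from 6.56 for ISL1 to 7.62 for NEUROD1, since sibling replicate 1 had 0 reads of every gene shown.

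Neuronal markers moved with the neuron-shared genes between the groups. The 29 rows of this list summed to 1405 and 1403 reads in the mutant pools and to 21 and 44 in the siblings, with reads from 28, 27, 7 and 7 rows. Of 19 tested, 18 rose and 1 fell, with a median of 6.95, where 35.2% and 25.9% of all tested genes did. The rows that rose passed the count filter largely through the mutant libraries, where they are high, which favours a rise. Their count and the median are therefore a description. Without mutant replicate 1 the median was 6.71, and that of all tested genes was 0.29. Fewer rows were called there, as over all genes. SNAP25 (ENSDARG00000020609), part of the synaptic fusion machinery, and STMN1 (ENSDARG00000033655), which controls microtubules, had log2 fold changes of 9.28 ± 0.90 and 9.18 ± 0.92. They were read in no sibling library, so these fitted values depend on the prior count. The row that fell was a second STMN1 row (ENSDARG00000004169), named after its value was seen, with 22 and 16 reads in the mutant pools and 9 and 36 in siblings. It was at -1.58 and did not pass with total-count or ribosomal protein scaling, at 0.18 and 1.13. The part of neuronal content in the rise of the neuron-shared genes was not tested.

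The ratio of neuron-shared to neuronal reads differed between the libraries. It was 0.0932 (exact 95% interval 0.0773 to 0.112) and 0.0713 (0.0576 to 0.0874) for the mutant pools, and 0.591 (0.349 to 0.981) in sibling replicate 2. In sibling replicate 1, with 0 and 21 reads, it was 0 with an upper bound of 0.192. Without the second STMN1 row, a choice made after its values were seen, the ratio in sibling replicate 2 was 3.25 (1.43 to 8.31), from 26 and 8 reads, against 0.0947 and 0.0721 in the mutants. Sibling replicate 2 held more reads of these 5 genes per neuronal read than either mutant library did. This rests on few neuronal reads, and 13 of the 26 reads were of SCG3. The source of these reads was not tested.

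Pituitary genes, another place where PCSK1, PCSK2 and SCG3 are used, had few reads. The 15 rows summed to 22 and 18 reads in the mutant pools and 0 and 2 in the siblings, and none passed the count filter. POMC, whose product PCSK1 cuts in the pituitary, held 9 and 12 of these in mutants, with 0 and 1 in siblings, while prl, lhb, fshb and TSHB were at 0 in every library. Paralogs of NEUROD1 and ISL1 and related factors also had few reads, 28 and 31 in mutants and 0 and 2 in siblings over 11 rows, with none tested. The row with most reads was LHX4, a LIM homeodomain factor of pituitary and motor neurons, with 8 and 7 reads in the mutant pools and 0 in siblings.

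Of the other granule and prohormone processing genes, 13 of 23 rows were tested, 8 rose and 4 fell, with a median of 3.02, where 35.2% and 25.9% of all tested genes did. The rows that rose passed the count filter largely through the mutant libraries, where they are high, which favours a rise. Their count and the median are therefore a description. Without mutant replicate 1 the median was 2.104 and without mutant replicate 2 it was 3.140. Fewer rows were called in those fits, as over all genes. CPE, the carboxypeptidase that trims cut prohormones, rose by 3.02 ± 0.38, scg2b, a granin, by 4.25 ± 0.71 and PTPRN2, a granule membrane protein, by 7.60 ± 1.23 (edgeR adjusted p = 2.23e-05, 0.000228 and 0.000232). PTPRN2 had 40 and 29 reads in the mutant pools and 0 in both siblings, so its fitted size depends on the prior count. PAM, both FURIN rows and PCSK5, which act in many tissues, were the 4 that fell, and were picked for mention once their values were known. They were at -0.93, -1.77, -1.04 and -2.19, but 0 of these passed with total-count scaling, at 0.74, -0.09, 0.65 and -0.52. With ribosomal protein scaling 12 of 13 were called higher and none lower, where 6425 and 657 of 8133 genes were.

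Islet transcription factors had 6 of 23 rows tested, of which 5 rose and 0 fell, with a median of 4.24, where 35.2% of all tested genes rose and 25.9% fell. The rows that rose passed the count filter through the mutant libraries, which favours a rise, so their count and the median are a description. Without mutant replicate 1 the median was 4.01 and without mutant replicate 2 it was 4.28. Fewer rows were called in those fits, as over all genes. Rows removed by the filter included FOXA2, with 2 and 1 reads in mutants against 13 and 6, and hhex, with 0 and 0 against 4 and 3, both picked for mention after their values were seen. Without the filter they were at -3.53 and -5.43 and did not pass (edgeR adjusted p = 0.0515 and 0.0708). The smallest adjusted p values were those of SOX4 (ENSDARG00000004588), at 3.59 ± 0.55, and of the MYT1 rows, at 4.31 ± 0.83 and 7.19 ± 1.35 (edgeR adjusted p = 0.000108, 0.000666 and 0.000695), factors that neural progenitors also use. The pancreatic factor pdx1, named after its values were seen, had 0 and 2 reads in the mutant pools and 0 and 2 in the siblings, and pax4 had 0 in every library. At this depth the levels of these 2 factors could not be compared between groups.

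Genes of beta cell glucose sensing had 3 of 9 rows tested, of which 2 rose and 1 fell, with a median of 3.57, where 35.2% and 25.9% of all tested genes did. Without mutant replicate 1 the median was 3.72, without mutant replicate 2 it was 3.58 and without sibling replicate 1 it was 3.24. Fewer rows were called higher in those fits, as over all genes. With DESeq2, 1 rose and 1 fell, where 1706 and 1658 of 8133 genes did. The channel subunit cacna1da and the sulfonylurea receptor ABCC8 rose by 4.67 ± 0.81 and 3.57 ± 0.87 (edgeR adjusted p = 0.000298 and 0.00325). These 2 rows passed the count filter through the mutant libraries, where they are high, which favours a rise. Their count and the median are therefore a description. The glucose transporter SLC2A2, which liver also uses, fell, at -6.89 ± 0.51 (edgeR adjusted p = 1.8e-07), with 1 and 5 reads in the mutant pools and 169 and 129 in siblings. SLC2A2 passed the count filter through the sibling libraries, where it is high, which favours a fall, so its value is a description.

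Among receptors and their adaptors, 8 of 16 rows were tested, 3 rose and 2 fell, with a median of 0.93, close to the 35.2% and 25.9% of all tested genes. With ribosomal protein scaling 6 rose and 0 fell, where 6425 and 657 of 8133 genes did. Without mutant replicate 1 the median was 0.61, with fewer rows called, as over all genes. The glucagon receptor gcgra fell, at -3.54 ± 0.43 (edgeR adjusted p = 1.59e-05), with 7 and 4 reads in the mutant pools and 27 and 25 in siblings, and under ribosomal protein scaling it was at -0.93 and did not pass. An IRS2 row (ENSDARG00000037099), an adaptor of the insulin receptor, fell, at -2.40 ± 0.37 (adjusted p = 0.00013), but was at 0.26 with ribosomal protein scaling. An IGF1R row (ENSDARG00000027423) rose by 2.35 ± 0.46 (adjusted p = 0.000817). Unlike the hormones, these genes had similar reads in both sibling libraries. The gcgra row passed the count filter through the sibling libraries, where it is high, which favours a fall. This IGF1R row passed through the mutant libraries, where it is high, which favours a rise. The values of both rows are therefore a description. Hepatocyte markers fell in 17 of 17 tested rows (median -8.28), and of 11 tested intestinal rows 5 rose and 3 fell (median 0.40). The hepatocyte rows are high in the sibling libraries, which favours passing the count filter with a fall. Their count and median are therefore a description.

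The 5 genes with profiles closest to NEUROD1 were MAPRE2, abcc3, ptprna, eevs and tet3, at distances of 0.15 to 0.23 over the 4 libraries. Each had 0 reads in sibling replicate 1, 4 or 5 in sibling replicate 2 and between 21 and 40 in each mutant library. Of these, ptprna, a granule membrane protein, is on the granule list, where it rose by 2.35 ± 0.74 (edgeR adjusted p = 0.0149). It was picked for its likeness to NEUROD1 in these libraries and passed the count filter through the mutant libraries. Both fix its direction, so its rise is a description.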

How the data were processed

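The authors deposited raw read counts per Ensembl gene, 1 column for each of the 4 libraries (per the file headers). Per the submitters' processing notes, the tools were TopHat2, HTSeq and DESeq2 and the build was GRCz10, with no version or role. No source used here gives the settings, the strand or the treatment of multiply mapped reads, so reads of close paralogs, such as the somatostatin and glucagon genes, may be split or shared. RNA was depleted of ribosomal RNA and read as 75 bp single ends, per the labels. Genomic positions and gene lengths were not analysed here, and the table of repeat counts was not used here.

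Of 31953 rows, 26121 had a symbol. The gene names given here were matched ignoring case. A listed symbol with no row was also matched to rows named without its final a or b, or with a hyphen for the point, a step added after the files were seen. The members and all lists were chosen with earlier results of these data known.

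Tests used edgeR 4.0.16 quasi-likelihood fits in R 4.3.3 (robust fit, filterByExpr by group with a count minimum of 10, TMM scaling, Benjamini-Hochberg adjustment over 8133 genes, threshold 0.05). The fit was also run on simulated data with a shared composition and equal numbers of genes raised and lowered. These libraries differ in composition, so that run does not test the scaling used here. The TMM factors were 1.78 and 1.83 in mutants and 0.63 and 0.485 in siblings. Intervals of counts and shares are exact 95% intervals from scipy 1.17.1. Alternatives were total-count, RLE and ribosomal protein scaling (80 genes), DESeq2 1.42.0, no count filter, the replicate number as a block, and leaving out each library. Genes named were the members, up to 3 genes per list by smallest p, or the gene with most reads, the 5 genes nearest to ins and NEUROD1 (prior count 2, at least 50 reads) and UHRF1. Some genes that this rule names are not reported here.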

Additional observations from a re-analysis of the deposited data

How the results depend on the processing

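The number of members called higher was 3 with all libraries, 5 with total-count scaling, 5 with ribosomal protein scaling and 0 without the count filter, and from 0 to 5 when a library was left out. The number called lower was 0, all 5 tested edgeR log2 fold changes being above 0, and from 0 to 3 when a library was left out. Over all genes, 2861 were higher and 2104 lower. These became 5585 and 1015 with total-count scaling and 6425 and 657 with ribosomal protein scaling. DESeq2 called 1706 higher and 1658 lower, and without the count filter 1540 were higher. Leaving out a library gave 340 to 2405 higher and 924 to 2227 lower. The replicate numbers were not shown to pair the libraries, since the deviations of same-numbered libraries correlated at 0.045 over 8133 genes. With the replicate block PCSK1 and NEUROD1 passed and ISL1 did not (2.42, edgeR adjusted p = 0.0654). With the block and no count filter, ins, gcga, sst2 and GCG were at -5.16, -4.95, -10.31 and -5.84. They passed there (edgeR adjusted p = 8.16e-08, 4.46e-12, 3.56e-23 and 1.15e-11), where 2290 of 23859 genes were called lower. These genes were high in sibling replicate 2 alone, and the block leaves little spread to estimate from so few libraries. Those p-values are therefore no measure of a genotype effect. With DESeq2, ISL1 did not pass (adjusted p = 0.148). The sign turned for ins and gcga without sibling replicate 2 (from -6.52 and -6.33 to 3.84 and 0.76 over the libraries left out) and for SCG3 without sibling replicate 1 (-0.40 to 7.31). It also turned for GCG (-8.51 to 2.94), SST (-2.95 to 4.39, and 0.76 with ribosomal protein scaling) and UHRF1 (-2.01 to 0.97, 0.12 with total-count and 1.12 with ribosomal protein scaling). The summed hormone level of sibling replicate 2 was 1298 CPM with TMM scaling and 579 CPM relative to total gene reads. The 5 genes nearest to ins and NEUROD1 were the same with a prior count of 0.5, and 4 of each 5 were with a prior count of 5. The hormone members had 0 to 4 reads in 3 of 4 libraries, too few for a comparison among those. The cause of these changes was not tested.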
